A study of Rattus norvegicus with 18 samples.

Results

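The genes of the cytosolic ribosomal proteins were followed in neural retina and in RPE/choroid (the retinal pigment epithelium with the vascular layer beneath it) of Fischer 344 rats. They were chosen by a rule on names, set with earlier results of these data known. The rule took every symbol made of Rps or Rpl and a number, with or without a final a. It also took the stalk genes Rplp0, Rplp1 and Rplp2. The retina table held 66 such symbols of 28111, of which 42 encode proteins of the large subunit and 24 of the small subunit. The RPE/choroid table held 72 such identifiers of 32552, under 67 symbols. Across both tissues there were 72 symbols, of which 61 appeared in both. The animals were female and wild type. The 3 groups were young rats at 4 months, aged rats at 24 months given plain drinking water, and aged rats at 24 months given 8-aminoguanine (8-AG), a purine that inhibits purine nucleoside phosphorylase. 8-AG was taken in the drinking water at 5 mg/kg per day for 8 weeks from 22 months. Each group had 3 RNA-seq libraries per tissue, described as made from poly-A RNA. Replicate libraries were not stated to come from separate animals, so p-values measure the spread between these libraries. In RPE/choroid, young libraries 1 and 2 share a number in their column names, with L in one and R in the other, and so do aged libraries 1 and 2.

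The cytosolic ribosome is built from ribosomal RNA and a fixed set of proteins, most of which are needed in equal copy number. Their mRNAs are therefore abundant in all cells and tend to rise and fall together. Most of these mRNAs begin with a cytosine followed by a run of pyrimidines, the 5′ terminal oligopyrimidine (TOP) tract, through which the kinase mTOR and the RNA-binding protein Larp1 set how much of each mRNA is translated.

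A pyrimidine run across the annotated start was common in the rat genes, and 12 start sites are shown because they belong to genes described here and include starts with and without such a run. Promoter sequence was found in RefSeq (build GRCr8) for 57 of the 72 symbols, with 58 entries because Rps27a has 2. Each line gives 10 bases before and 20 bases from the annotated first base, 5′ to 3′ on the strand of the gene, and capitals mark an unbroken run of at least 5 C or T that covers the first base.
Rplp0 (chr12:46718371-46718400, minus strand): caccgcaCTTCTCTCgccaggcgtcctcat
Rplp1 (chr8:71290853-71290882, minus strand): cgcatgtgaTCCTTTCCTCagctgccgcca
Rpl3 (chr7:113507971-113508000, minus strand): gcctgctcgaTCTCTatcggcggcgtgtgg
Rpl35a (chr11:81235002-81235031, minus strand): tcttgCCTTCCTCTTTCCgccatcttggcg
Rpl39 (chrX:121195877-121195906, minus strand): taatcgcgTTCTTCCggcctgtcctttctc
Rps3a (chr2:173827023-173827052, minus strand): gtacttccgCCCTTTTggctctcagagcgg
Rps15 (chr7:10068096-10068125, minus strand): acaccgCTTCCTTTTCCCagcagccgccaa
Rps24 (chr16:96507-96536, plus strand): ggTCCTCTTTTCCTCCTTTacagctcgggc
Rps16 (chr1:92770648-92770677, plus strand): aaaatcggtcggggtggccccaagctttcc
Rpl5 (chr14:1995206-1995235, minus strand): ctttcccacgtcgcttgcgtcctggaggtg
Rpl7a (chr3:30637126-30637155, plus strand): ctccagccgagcaagatggtgagtgattat
Rpl36 (chr9:1533770-1533799, plus strand): cggccgccatcggaaagctgcaggtaagtc
The first 8 carry a run across the start and the last 4 do not. In Rpl3 and Rps24 the annotated first base is a T.

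Of the 58 entries, 36 (62.1%) had such a run, against 12.0% of all 33469 promoter entries. The stricter form, a C as the first base with at least 4 pyrimidines after it, was found in 23 entries (39.7%) and in 2.63% of all. Within the 300 bases from 250 before the start, read on both strands, the letters CCGGAAG, a core recognised by ETS-family factors, were present in 32.8% of the entries and 8.75% of all promoters. The letters AAGATGGCG, a core of the YY1 site, were in 5.17% and 1.73%. TATAAA was in 10.3% and 14.2%. Where transcription began in these libraries was not measured.

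Total counts were 12283424 to 15644317 per library in retina and 28573828 to 48203050 in RPE/choroid. The first RPE/choroid library of the 8-AG group stood apart. Its 7 striated muscle markers summed to 49491 CPM (counts scaled by library totals corrected with the trimmed mean of M-values), against 17.2 to 4696 CPM in the other 8. Its rod markers summed to 59887 CPM against 749.8 to 21301, while its RPE markers (6258 against 9899 to 18945) and endothelial markers (607 against 2989 to 6525) were the lowest. Except for cell type markers, counts, medians and extreme values of the 8-AG comparisons that rest on it are also given without it. In bulk tissue, fewer cells of a type and less RNA per cell cannot be told apart.

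Ribosomal protein genes have many near-identical copies in the genome, and some of their counts are uncertain. In retina, 4 symbols had no count in any library (Rpl8, Rps18, Rps20 and Rps27a) and Rpl38 had a single count. Identifiers that the RPE/choroid table calls Rps18 and Rps27a did carry counts in retina, under other names. The row for Rpl9, a large-subunit protein, stood at 203, 207 and 25.5 CPM in the young libraries, 139.6, 5.17 and 154 in the aged and 131, 3.02 and 77.1 in the 8-AG libraries. A second identifier, called Rpl9 in the RPE/choroid table, moved the opposite way, and the sum of both was 208, 208 and 205 CPM in young, 231, 288 and 247 in aged and 206, 233 and 235 in 8-AG retina. Rpl13 and Rps6 also jumped between retina libraries, and whether a second identifier moved the opposite way was not tested for them. Their values, like those of Rpl9, are uncertain and are given only as such. No level is compared between genes, since mRNA lengths were not used.

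The first comparison asks what age does in the retina. Ribosomal protein mRNA was higher in aged than in young retina, by a small amount spread over most of the genes. Added up, the 66 genes came to 7602, 7487 and 6795 CPM in young and 7848, 9548 and 8612 CPM in aged retina. The lowest aged library lay just above the highest young one. As a share of the counts in a library, without that scaling, they made up 0.699% ± 0.0490 in young and 0.899% ± 0.0865 in aged retina (SD, n = 3). Of the 66 genes, 60 had enough counts to be tested, and 58 of them had a log2 fold change above 0, against 50.4% of all 14583 genes tested. The median log2 fold change was 0.28 against 0.00 for all genes.

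**Figure D1:**
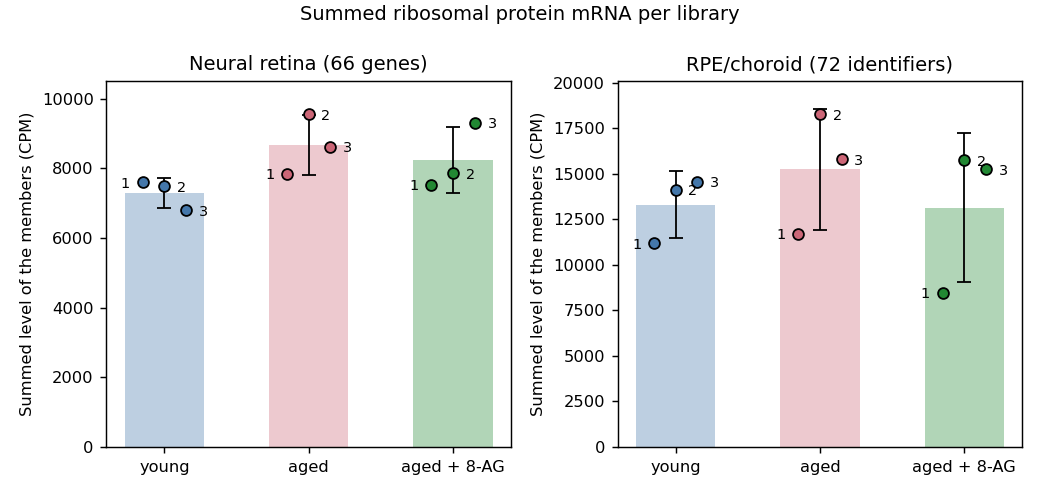
Summed level of the ribosomal protein genes in each library (y axis, CPM; left, 66 genes in retina; right, 72 identifiers in RPE/choroid) by group (x axis), with libraries as points labelled by replicate number, bars for the mean and error bars for the SD (n = 3). In retina the aged libraries lie above the young ones, and in RPE/choroid the first 8-AG library, at 8462 CPM, is the lowest of the 9.

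By edgeR's quasi-likelihood test with Benjamini-Hochberg adjustment over all genes, 23 of the 60 rose at an adjusted p under 0.05 and 0 fell, where 7.33% of all genes tested rose and 7.3% fell. At an unadjusted p under 0.05 the numbers were 46 higher and 0 lower, against 14.9% of all genes higher and 14.4% lower. In 40 of the 60 the lowest aged library was above the highest young one, against 18.1% of all genes. None met the study's joint criterion of a change over 1.5-fold with an unadjusted p under 0.05, which 6.45% of genes met upward; the uncertain Rps6 exceeded the fold alone. The members that passed the filter on low counts include ones at a few CPM, and the 6 that did not pass are the 5 named above with at most 1 count and Rpl13.

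The 4 genes with the largest rise among the 23 were Rpl39, Rps24, Rps25 and Rps14. Rpl39 (ENSRNOG00000034237 and ENSRNOG00000048743, whose reads were summed) encodes a small protein that lines the tunnel through which the new peptide leaves. It was at 31.5, 34.8 and 31.6 CPM in young and 42.1, 47.96 and 41.9 CPM in aged retina. The groups did not overlap, and the gene rose 1.35-fold (log2 0.43 ± 0.08 SE, adjusted p = 0.00756 by edgeR).

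Rps24 (ENSRNOG00000010189), a small-subunit protein needed to process the precursor of 18S rRNA, measured 107, 108 and 98.8 CPM in young and 137, 149 and 134 CPM in aged retina. It rose 1.34-fold (log2 0.42 ± 0.06, adjusted p = 0.00254 by edgeR), the smallest adjusted p of the family. Rps25 (ENSRNOG00000027503), on the head of the small subunit, went from 69.4, 71.3 and 71.0 CPM to 85.0, 102 and 94.1 CPM, a 1.33-fold rise (log2 0.41 ± 0.07, adjusted p = 0.00448). In both genes every aged library was above every young one. Rps14 (ENSRNOG00000018774), on the platform of the small subunit, was 108, 119 and 115 CPM in young and 138, 174 and 142 CPM in aged retina (log2 0.41 ± 0.09, adjusted p = 0.0149).

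At the other end of the 23 were Rpl26, Rps16, Rps3a and Rpl5, with log2 fold changes of 0.32 ± 0.09, 0.29 ± 0.08, 0.29 ± 0.08 and 0.24 ± 0.07. Rpl26 sits near the exit of the peptide tunnel, Rps16 reaches toward the decoding site, and Rps3a lies by the exit of the mRNA channel. The calls thus cover a narrow span of sizes. Of the 60 fitted changes, 47 lay between 0.2 and 0.45, 12 were at or under 0.2 and 1, the uncertain Rps6, was larger.

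**Figure D2:**
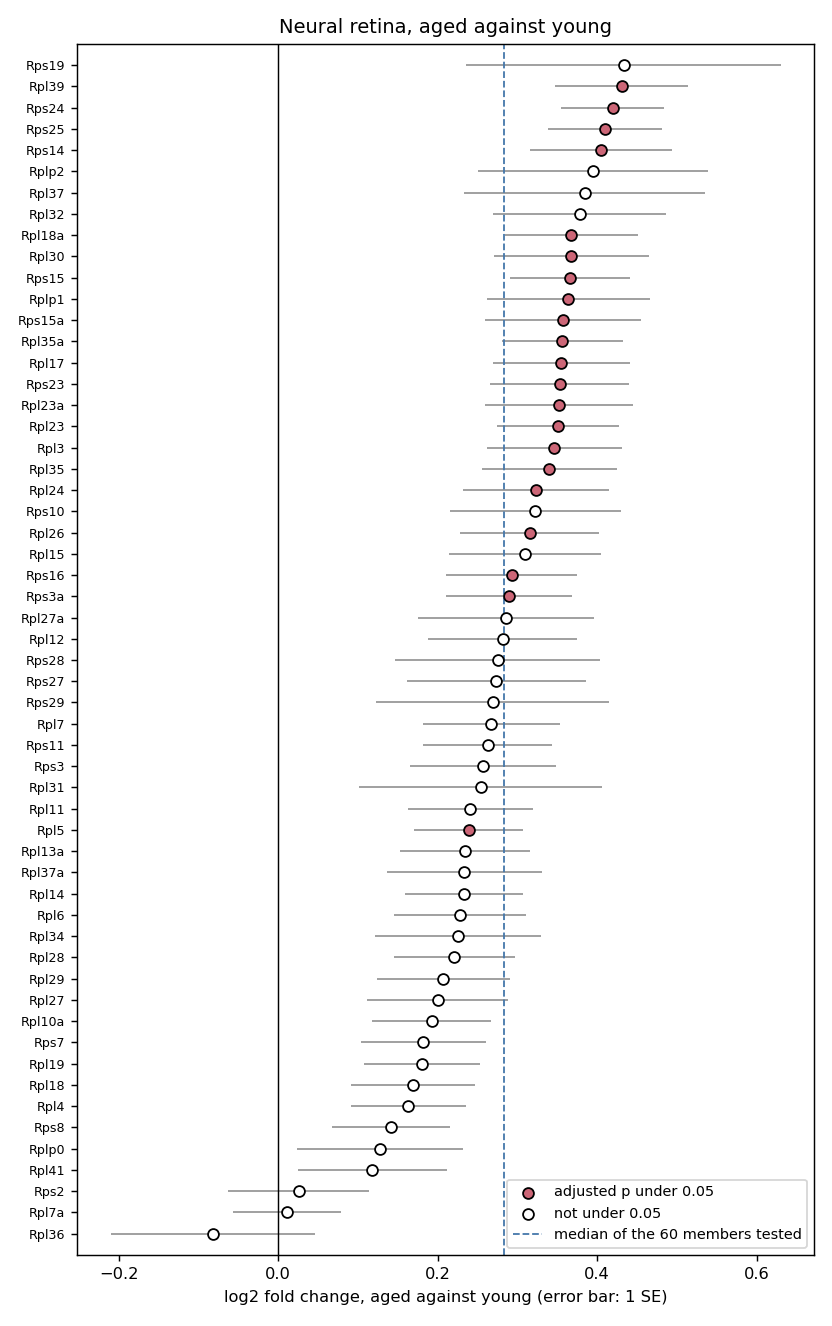
Log2 fold change of 56 ribosomal protein genes in aged against young retina (x axis, error bars 1 SE from edgeR), ordered by size (y axis, gene symbols), with filled points for an adjusted p under 0.05, a dashed line at the median of the 60 tested, 0.28, and 4 genes not drawn, among them Rpl9 and Rps6, whose SE is over 0.6. Most points lie between 0.2 and 0.45, and Rpl36, Rpl7a and Rps2 lie near 0.

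The stalk recruits the elongation factors to the ribosome. Its base, Rplp0 (ENSRNOG00000001148), was at 252, 244.2 and 219 CPM in young and 222, 295 and 264 CPM in aged retina. The groups overlapped and the difference did not pass (log2 0.13 ± 0.10, adjusted p = 0.459 by edgeR). Its partner Rplp1 was at 131, 133 and 111 CPM in young and 143, 181 and 159 CPM in aged retina, and rose (log2 0.36 ± 0.10, adjusted p = 0.0467). Rplp2, the other partner, was counted at 6.63, 7.00 and 7.64 CPM in young and 8.90, 10.8 and 8.29 CPM in aged retina (log2 0.40 ± 0.14, adjusted p = 0.0976). Rplp1 and Rplp2 did not overlap between the groups.

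Rpl5 and Rpl11 form a particle with 5S rRNA that also binds the p53 regulator Mdm2 when ribosome assembly fails. Rpl5 (ENSRNOG00000023529) stood at 211, 215 and 208 CPM in young and 231, 273 and 244.03 CPM in aged retina, a 1.18-fold rise (adjusted p = 0.0425 by edgeR). Rpl11 had the same fold change, from 83.5, 84.1 and 76.8 CPM to 90.1, 107 and 91.5 CPM, but missed the threshold (adjusted p = 0.0671). For both genes the aged libraries were above the young ones.

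Among proteins near the catalytic and decoding centres, Rpl3, which reaches into the peptidyl transferase centre, was at 323, 313 and 322 CPM in young and 355, 457 and 405 CPM in aged retina and rose 1.27-fold (adjusted p = 0.0227 by edgeR). Rps3, at the entry of the mRNA channel, was at 159.5, 169 and 149 CPM in young and 168, 216 and 187 CPM in aged retina (log2 0.26 ± 0.09, adjusted p = 0.0927). One aged library of Rps3 fell within the young range. Rps6, the substrate of the S6 kinases, is among the genes with erratic counts, at 14.6, 12.7 and 2.03 CPM in young and 18.8, 27.9 and 16.9 CPM in aged retina (log2 1.13 ± 0.72, adjusted p = 0.385).

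Not every gene of the family moved. Rpl7a, Rps2 and Rpl36, chosen after their values were seen, had log2 fold changes of 0.01 ± 0.07, 0.03 ± 0.09 and -0.08 ± 0.13. Rpl7a measured 172, 163 and 163 CPM in young and 155, 181 and 167 CPM in aged retina, so that the groups overlapped. By subunit, 10 of 21 small-subunit and 13 of 39 large-subunit genes rose, with medians of 0.32 and 0.25. The ratio of the summed small-subunit to large-subunit level was 0.470, 0.471 and 0.479 in young and 0.485, 0.491 and 0.480 in aged retina.

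**Figure D3:**
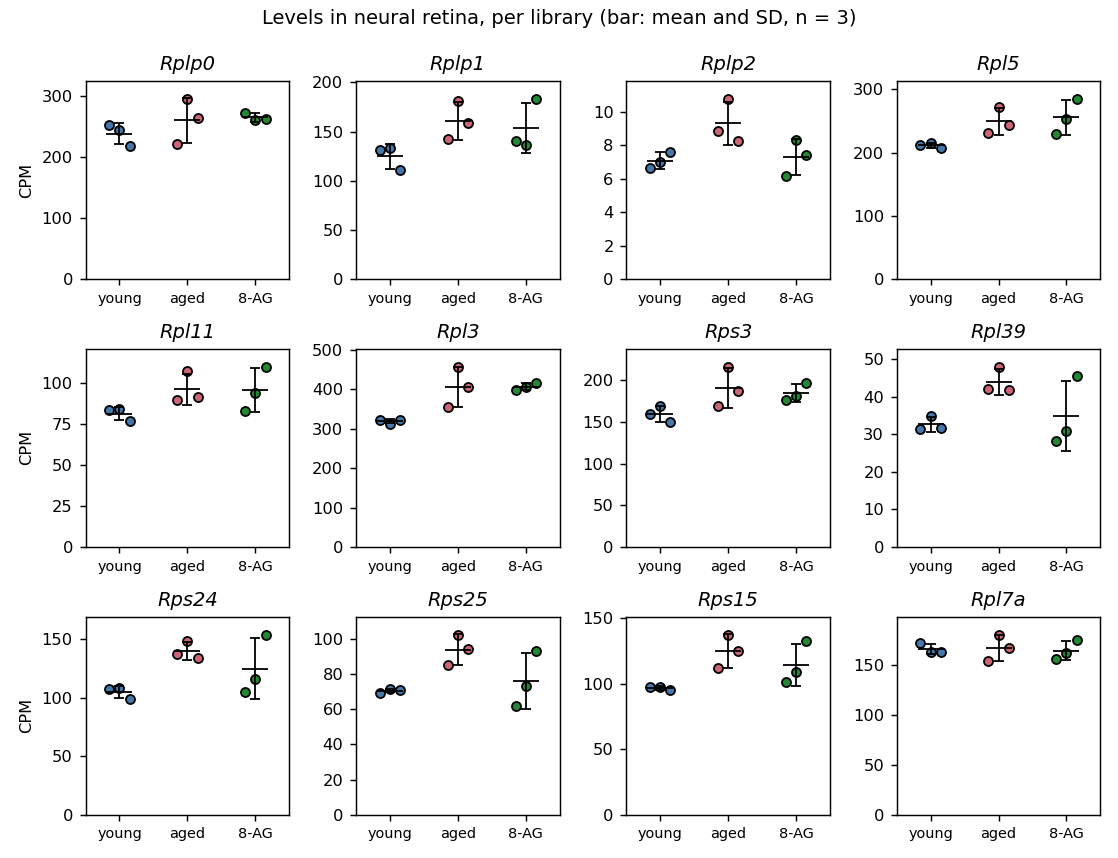
Levels of 12 ribosomal protein genes in retina (y axis, CPM from 0; x axis, group), with libraries as points, horizontal marks for the mean and error bars for the SD (n = 3). Rpl39, Rps24, Rps25 and Rps15 are higher in every aged library than in any young one, and those of Rplp0 and Rpl7a overlap between young and aged.

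Genes that the RPE/choroid table counts as ribosomal but the retina table names otherwise gave similar values. Of 12 such identifiers tested, 11 had a log2 fold change above 0 and 4 rose, with a median of 0.34. The 4 were those for Rpl10, a late-joining protein of the large subunit (log2 0.45 ± 0.07, adjusted p = 0.00311 by edgeR), Rps27a, made as a fusion with ubiquitin (log2 0.35 ± 0.08, adjusted p = 0.0186), Rps12 (log2 0.43 ± 0.11, adjusted p = 0.0350) and Rps18 (log2 0.34 ± 0.10, adjusted p = 0.0468). The Rpl10 identifier read 142, 143 and 147 CPM in young and 178, 217 and 196 CPM in aged retina. That of Rpl22, which can be replaced in the ribosome by its paralog Rpl22l1, did not pass (log2 0.18 ± 0.09, adjusted p = 0.232).

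The number of calls depended on single libraries. It was 11, 6 and 7 without young library 1, 2 or 3, and 38, 13 and 7 without aged library 1, 2 or 3. It was 10 of 61 when the 8-AG libraries shared the estimate of the spread. The median log2 fold change stayed between 0.21 and 0.36 without any one library, and between 56 and 59 of 60 or 61 genes tested were above 0. Each of the 23 genes was above 0 in all 6 such fits, and 5 genes, Rpl39, Rps15, Rps24 and Rps25 among them, passed the threshold in all 6. With the 8-AG libraries in the fit, Rps15 (adjusted p = 0.0315 by edgeR) and Rps24 (0.0457) still passed, and Rpl39 (0.0990) and Rps25 (0.0654) did not.

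Markers of cell types moved between the same groups. Of 14 rod markers tested 11 fell, their sum going from between 61676 and 67013 CPM in young to between 38934 and 43848 CPM in aged retina. All 11 microglia and macrophage markers tested rose, from sums of 56.2 to 57.5 CPM to 173 to 302 CPM. Lens markers summed to 168 to 6778 CPM in young and 14.4 to 19.98 CPM in aged retina, with 3 of 12 lower. Of 6 endothelial markers 5 were above 0 (median 0.47) and 1 rose, with overlapping sums of 675 to 741 and 628 to 754 CPM. The 1 T and B cell marker tested rose (log2 1.48), with sums of 4.16 to 4.59 CPM in young and 9.19 to 14.4 CPM in aged retina. Of the markers of these lists only Ms4a1, of T and B cells, was at 0 in every library. The part of these cells in the change of ribosomal protein mRNA was not tested. Genes with a pyrimidine run across the start and genes without one had medians of 0.28 (11 of 29 rose) and 0.27 (6 of 18 rose).

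The rest of the translation machinery, from lists drawn up for this comparison, had smaller medians. Of 30 tested genes for ribosome biogenesis, among them Ncl, Fbl and Npm1, 0 rose and 0 fell by edgeR, with 5 higher and 1 lower at an unadjusted p under 0.05 and a median log2 fold change of -0.03. Of 72 proteins of the mitochondrial ribosome, Mrps6 (log2 0.52 ± 0.13, adjusted p = 0.0223) and Mrps18a (log2 0.38 ± 0.09, adjusted p = 0.0163) rose and 0 fell, with a median of 0.11. Of 17 elongation factors and other mRNAs with TOP tracts, Rack1 rose, and the poly-A binding protein Pabpc1 (log2 -0.24 ± 0.07, adjusted p = 0.0495) and the splicing protein Hnrnpa1 (log2 -0.28 ± 0.06, adjusted p = 0.00949) fell. The median of these 17 was 0.14, with 15 above 0. At an unadjusted p under 0.05, 6 of them were higher and 2 lower.

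Of 19 initiation factors 1 fell, the subunit-joining factor Eif5b (log2 -0.41 ± 0.08, adjusted p = 0.0102 by edgeR), and 0 rose. Among 15 regulators both S6 kinases fell, Rps6kb1 by 0.30 ± 0.07 (adjusted p = 0.0242) and Rps6kb2 by 0.42 ± 0.08 (adjusted p = 0.00783) on the log2 scale, and 0 rose. Ribosomal proteins with other kinds of symbol were few. Rack1, a scaffold on the small subunit, was at 137, 129.9 and 134 CPM in young and 149.7, 202 and 187 CPM in aged retina (log2 0.42 ± 0.10, adjusted p = 0.0237). Rpsa (log2 0.19 ± 0.08, adjusted p = 0.137) and the erratically counted Rps4x (-1.29 ± 0.75, adjusted p = 0.342) did not pass. Of the paralogs, Rpl7l1, Rpl22l1, Rpl36al and Rps27l were tested and had log2 fold changes of 0.22, 0.01, 0.46 and 0.29, with adjusted p from 0.0901 to 0.975.

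The second comparison asks what 8-AG does to the aged retina. No ribosomal protein gene passed the test, with a median SE of 0.12 for a log2 fold change. The 66 genes summed to 7522, 7856 and 9311 CPM in the 8-AG libraries, which spanned nearly the same range as the aged ones. Of 61 genes tested, 0 passed an adjusted p under 0.05 by edgeR in either direction, 0 had an unadjusted p under 0.05, and DESeq2 called 0 with 1 lower at an unadjusted p under 0.05. Of all genes, 0.0205% rose and 0% fell, and at an unadjusted p under 0.05 the shares were 2.04% higher and 1.63% lower. The median log2 fold change was -0.10 and 50 of the 61 were below 0, against 51% of all genes.

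That direction rested on a few libraries. Without aged library 2, which held the highest value of 40 of the 61 genes, 33 were below 0 and the median was -0.01. Without 8-AG library 1 the median was -0.02, with 39 below 0, and without 8-AG library 2 it was -0.05, with 42 below 0. Without aged library 1 or 3 it was -0.17 and -0.12. Lens markers summed to 1829 CPM in 8-AG library 1 and to 14.4 to 19.98 CPM in aged retina, and their part was not tested. Without 8-AG library 3, which held the highest value of 18, the median was -0.23 and 25 genes had an unadjusted p under 0.05, again with 0 at an adjusted p under 0.05. The extreme fitted values were 1.71 ± 2.07 for Rpl13 and 0.11 ± 1.42 for Rps6 at the top, and -0.50 ± 1.61 for Rpl9 and -0.36 ± 0.17 for Rplp2 at the bottom. All but Rplp2 belong to the erratically counted genes. Rplp2 was at 6.18, 8.32 and 7.42 CPM with 8-AG, overlapping the aged libraries by a small margin.

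The 3 retina libraries of the 8-AG group carry the molecule label total RNA and the other 6 poly-A RNA, although the protocol describes poly-A capture for all. This label and the treatment cannot be told apart. Between aged and 8-AG retina 0 rod and 0 microglia markers passed by edgeR, with 3 rod and 0 microglia markers higher at an unadjusted p under 0.05, and rod sums were 39745 to 52595 CPM with 8-AG. In the other parts of the translation machinery 0 genes passed by edgeR in this comparison, with Eif3l higher and 1 biogenesis gene lower at an unadjusted p under 0.05. Rack1 (log2 0.01 ± 0.10) and Rpsa (-0.04 ± 0.09) were near 0.

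The 8-AG group was also set against the young retina libraries that served in the first comparison. Here too the molecule label cannot be told apart from age and treatment. Here 7 of 61 genes rose and 0 fell, where 7.79% of all genes rose and 7.12% fell, and 57 were above 0, against 50.8% of all genes. At an unadjusted p under 0.05, 21 of the 61 were higher and 0 lower, against 14.7% and 14.5% of all genes. In 17 of the 61 every 8-AG library was above every young one, against 17.7% of all genes. The median log2 fold change was 0.17. Without 8-AG library 3 it was 0.06, with 40 of 61 genes above 0, and without 8-AG library 1 it was 0.25, with 57 above 0. The share of calls at an adjusted p under 0.05 was somewhat above that of all genes. Of 14 rod markers 9 fell (median log2 fold change -0.46), with sums of 39745 to 52595 CPM with 8-AG, and all 12 microglia and macrophage markers rose (median 2.18), with sums of 206 to 221 CPM. Their part in the ribosomal protein values was not tested.

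Among the 7 were Rpl3, Rps3a, Rpl6, Rpl5, Rpl13a and Rpl17. Rpl3 was at 398, 406 and 416 CPM with 8-AG (log2 0.35 ± 0.06, adjusted p = 0.00357 by edgeR against young). The 3 libraries of the 8-AG group lay close together and above all young libraries for this gene. Of the others, Rpl17 sits at the exit of the peptide tunnel, and Rpl13a also acts outside the ribosome in the control of inflammatory mRNAs. Rps3a (0.33 ± 0.07), Rpl6 (0.28 ± 0.06), Rpl5 (0.27 ± 0.08), Rpl13a (0.23 ± 0.06) and Rpl17 (0.23 ± 0.07) had adjusted p from 0.0118 to 0.0454.

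Of the 4 genes with the largest called rise in untreated aged retina, Rpl39, Rps24 and Rps25 had a larger SD with 8-AG than in the aged group, and Rps14 a smaller one. Rpl39 was at 28.4, 30.9 and 45.7 CPM (8-AG against young, log2 0.10 ± 0.17, adjusted p = 0.744 by edgeR). Rps24 was at 104, 116 and 154 CPM (log2 0.25 ± 0.14, adjusted p = 0.269) and Rps25 at 61.9, 72.9 and 93.2 CPM (log2 0.11 ± 0.13, adjusted p = 0.645). Rps14 was at 116, 137 and 148 CPM. In the first 3, 8-AG library 1 was within or below the young range and library 3 within or above the aged range. The count of calls was 22 without 8-AG library 1, 2 without library 2 and 4 without library 3. Library 1 held the lowest value of 13 of the 61 genes. Its lens markers summed to 1829 CPM, against 15.8 and 17.4 CPM in the other 8-AG libraries and 168 to 6778 CPM in young retina, and its RPE markers, at 614 CPM, were the highest of the 9 retina libraries. Their part in these counts was not tested. Without young library 1, 2 or 3 the count of calls was 4, 3 and 2. The largest and smallest fitted values outside the 7 were again Rps6 (1.23 ± 1.67), Rpl9 (-1.04 ± 1.41) and Rpl36 (-0.19 ± 0.17).

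Other genes of translation that rose with 8-AG against young were Rack1 (log2 0.44 ± 0.06, adjusted p = 0.00116 by edgeR), Eif3l (0.40 ± 0.08, adjusted p = 0.0101), Eef1b2 (0.26 ± 0.07, adjusted p = 0.0252), Eef1a1 (0.27 ± 0.06, adjusted p = 0.0148) and Tpt1 (0.26 ± 0.06, adjusted p = 0.0247), 5 of the 17 elongation and TOP genes, with 0 lower. Of 19 initiation factors, Eif4a2 (0.32 ± 0.08) and Eif3i (0.28 ± 0.08) rose and Eif5b fell by 0.30 ± 0.07. Mrps6 was the 1 riser of 73 mitochondrial ribosomal proteins (0.55 ± 0.13) and Rps6kb2 the 1 regulator of 15 that fell, by 0.52 ± 0.10. Ribosome biogenesis had 0 of 30 in either direction, with 2 at an unadjusted p under 0.05.

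**Figure D4:**
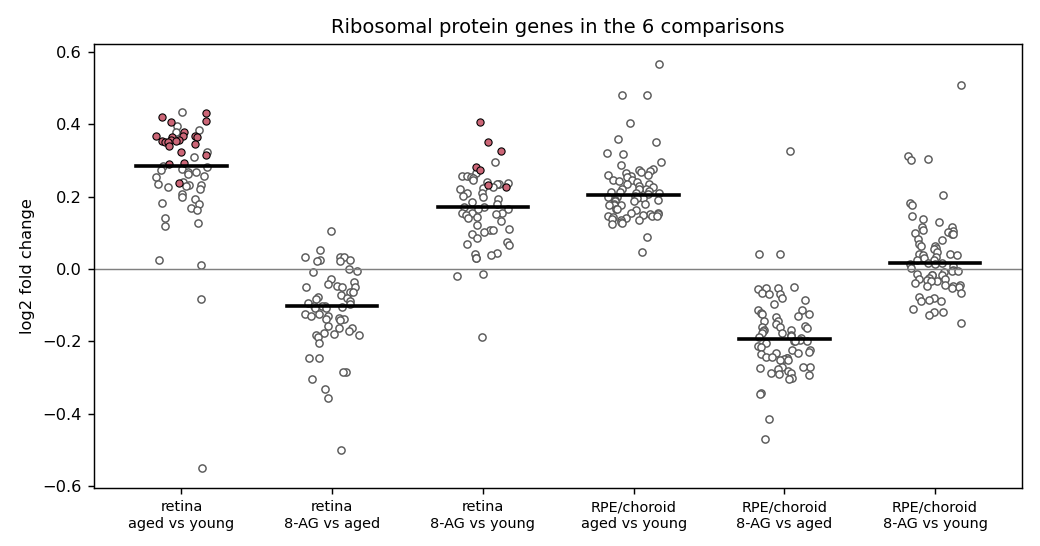
Log2 fold changes (y axis) of the ribosomal protein genes in the 6 comparisons (x axis), fitted with edgeR, with a point per gene, filled where its adjusted p is under 0.05, black lines for medians, and 4 values of Rps6, Rpl13 and Rpl9 in retina, over 0.8 in size, left off the scale. Medians are 0.28, -0.10 and 0.17 in retina and 0.21, -0.19 and 0.02 in RPE/choroid, and filled points appear in the retina comparisons against young.

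In RPE/choroid, the layer that supports the photoreceptors from behind, all 72 identifiers had enough counts. Their fold changes with age had the sign seen in retina, but lay within the spread of the libraries. The 72 identifiers summed to 11187, 14123 and 14577 CPM in young and 11694, 18271 and 15790 CPM in aged RPE/choroid, so the groups overlapped. All 72 had a log2 fold change above 0, against 53% of all 16047 genes, with a median of 0.21 against 0.02. By edgeR 0 passed an adjusted p under 0.05, 0 had an unadjusted p under 0.05, and DESeq2 called 0 as well with 0 at an unadjusted p under 0.05. Of all genes 0% passed by edgeR (DESeq2 called 19 higher and 9 lower), and 0.929% were higher and 1.2% lower at an unadjusted p under 0.05 by edgeR. The median SE of a log2 fold change was 0.22, as large as the median change, and 1 of the 72 did not overlap between the groups, against 3.03% of all genes, with CPM scaled over the 6 libraries compared. On the scale of all 9 libraries, which the printed levels use, 2 low-count identifiers, for Rpl21 and Rpl7a, did not overlap.

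The largest values were for a low-count copy of Rpl21 (log2 0.57 ± 0.40) and for Rps18 (0.48 ± 0.30), and the smallest for Rps25 (0.05 ± 0.15) and the lower-count of 2 Rps27a identifiers (0.09 ± 0.26). Rps18, whose symbol had no count in retina, was at 4.94, 7.17 and 5.96 CPM in young and 5.65, 10.6 and 9.15 CPM in aged RPE/choroid. Rplp0 was at 517, 689 and 707 CPM in young and 514, 925 and 739.6 CPM in aged RPE/choroid (log2 0.18 ± 0.26). Library 1 was the lowest of its group in both genes and both groups. The same held for Rpl5, at 204, 235 and 266 CPM in young and 221, 315 and 322 CPM in aged RPE/choroid (0.27 ± 0.19), and for Rpl3, at 607, 731 and 783 CPM in young and 643, 918 and 829.8 CPM in aged (0.16 ± 0.20).

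The other genes named by role had log2 fold changes of 0.48 ± 0.32 (Rplp2), 0.20 ± 0.21 (Rpl11), 0.26 ± 0.24 (Rpl10), 0.20 ± 0.20 (Rps3), 0.24 ± 0.19 (Rpl22), 0.36 ± 0.25 (Rps6) and 0.20 ± 0.22 (the higher-count Rps27a identifier). Rpsa and Rack1 had 0.21 ± 0.25 and 0.24 ± 0.20. Each was positive and under 2 SE. With the libraries that share a number summed, 71 were above 0 and again 0 passed. The median over the 72 was 0.06, with 51 above 0, without aged library 2, and 0.09 without young library 1. It was 0.36 without aged library 1. All 14 rod markers (median log2 fold change -0.43) and all 6 endothelial markers (-0.57) were below 0 in this comparison, with 0 passing by edgeR and 2 endothelial markers at an unadjusted p under 0.05. Rod sums were 2187 to 21301 CPM in young and 749.8 to 17983 CPM in aged RPE/choroid, and endothelial sums 5074 to 6525 and 2989 to 4362 CPM. All 9 lens markers tested were below 0 (median -3.48, 4 at an unadjusted p under 0.05), with sums of 38.2, 794 and 41.1 CPM in young and 23.4, 20.2 and 46.7 CPM in aged RPE/choroid. Of 9 T and B cell markers 8 were above 0 (median 0.46), with sums of 106 to 174 and 114 to 211 CPM, and 0 of either list passed by edgeR. With a rod marker score as covariate the median of the ribosomal protein genes was 0.14, and the part of the other cell types was not tested.

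8-AG against aged RPE/choroid gave the opposite sign, which was not seen without the library that stood apart. With 8-AG the 72 identifiers summed to 8462, 15751 and 15240 CPM. Library 1 held the lowest value of 64 of the 72 identifiers. By edgeR 0 passed, with 0 at an unadjusted p under 0.05, and the median SE was 0.35. By DESeq2 0 passed. Of all genes 0% were called by edgeR (DESeq2 called 75 higher and 6 lower), and 1.26% were higher and 0.424% lower at an unadjusted p under 0.05. The median was -0.19 against 0.01 for all 16257 genes, with 69 below 0 against 48.4% of all genes. Without 8-AG library 1 the median was 0.03, 26 were below 0 and 46 above, again with 0 called. Without aged library 2 the median was -0.04. All 14 rod markers (median 1.01) and 8 of 9 lens markers (2.66) were above 0. All 9 T and B cell markers (-0.68) and all 6 endothelial markers (-0.18) were below 0. By edgeR 0 of these passed, with 6 lens markers higher at an unadjusted p under 0.05. Lens sums were 250, 50.1 and 156 CPM with 8-AG and 23.4, 20.2 and 46.7 CPM in aged RPE/choroid. The part of these cells was not tested.

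The pattern of that library can be read in single genes. Rpl3 was at 353, 835 and 763 CPM with 8-AG, Rpl10 at 165, 343 and 312 CPM and Rplp0 at 393, 747 and 709.6 CPM. In each of them library 1 was the lowest of all 9 and the other 8-AG libraries were inside the aged range. Rps25 was at 142, 178 and 183 CPM against 152, 181 and 162 CPM in aged RPE/choroid (log2 0.04 ± 0.20). Its library 1 was also below every aged library, but by a smaller margin. Rpl3l, which takes the place of Rpl3 in the ribosomes of striated muscle, read 177 CPM in 8-AG library 1 and 0.13 to 15.9 CPM in the other 8 libraries (8-AG against aged, log2 3.78 ± 2.57, adjusted p = 0.99997 by edgeR, and -0.38 without that library). The part of muscle and photoreceptor RNA in the lower ribosomal protein level of this library was not tested.

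The highest fitted values of 8-AG against aged were for Rpl36a (0.33 ± 0.71), a component near the exit site for tRNA, counted under 1 CPM throughout, and Rps25, and the lowest for the low-count Rpl21 copy (-0.47 ± 0.49) and Rpl30 (-0.42 ± 0.39). Without 8-AG library 1 these log2 fold changes were 0.76 for Rpl36a, 0.13 for Rps25, -0.19 for the Rpl21 copy and -0.21 for Rpl30. Against young RPE/choroid the median was 0.02, with 40 above 0 and 32 below, and 0 passed by edgeR, by DESeq2 or at an unadjusted p under 0.05. With a rod marker score as covariate it was -0.20, with 10 above 0. With the libraries that share a number summed it was -0.03, with 28 above 0. Other scaling factors gave 50 and 48 above 0. All 14 rod markers (median 0.52) were above 0 and all 6 endothelial markers (-0.71) below 0, with 0 passing by edgeR. Their part was not tested. Of all genes 52.8% were above 0, 0% were called by edgeR (DESeq2 called 94 higher and 6 lower), and 1.79% were higher and 0.315% lower at an unadjusted p under 0.05. The highest values were for Rpl36a (0.51 ± 0.70) and Rpl35a (0.31 ± 0.39), and the lowest for the highest-count Rpl21 identifier (-0.15 ± 0.33). Without 8-AG library 1 these were 0.96 for Rpl36a, 0.57 for Rpl35a and 0.11 for Rpl21, all 72 identifiers were above 0 and the median was 0.24, while without 8-AG library 2 or 3 there were 16 and 14 above 0. Without young library 1, 2 or 3 the counts were 15, 63 and 66.

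Other parts of the translation machinery had 0 calls by edgeR in RPE/choroid in the 3 comparisons, with at most 1 gene of a list at an unadjusted p under 0.05. With age, the elongation and TOP genes had a median of 0.13 (15 of 16 above 0), mitochondrial ribosomal proteins 0.11 (64 of 73 above 0) and regulators -0.08 (4 of 15 above 0). With 8-AG against aged, elongation and TOP genes had a median of -0.17, with 16 of 16 below 0, while the mitochondrial ribosomal proteins had 0.14, with 64 of 73 above 0. Without 8-AG library 1 these medians were -0.06 (13 of 16 below 0) and -0.03 (31 of 73 above 0).

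Whether the tissues differed was tested with an interaction term in edgeR. Of 49 genes tied to the same identifier in both tissues, 45 passed the filter on low counts applied to all 9 libraries of each tissue. The erratic Rps6 and Rpl13 are among them, and Rpl13 had failed the filter only in the 6 libraries of the age comparison in retina. The others had at most 1 count in retina, and their fitted differences are left out. For age, RPE/choroid minus retina, 0 of the 45 passed an adjusted p under 0.05 and 0 an unadjusted p under 0.05, with a median difference of -0.08 on the log2 scale and a median SE of 0.24. Without 1 library this median ran from -0.24 (without RPE/choroid aged library 2) to 0.07 (without RPE/choroid aged library 1). For 8-AG against aged the counts were also 0 and 0, with a median difference of -0.12 and a median SE of 0.37. The median was 0.13 without RPE/choroid 8-AG library 1, 0.06 without RPE/choroid aged library 2 and -0.27 without RPE/choroid aged library 1. Limma's voom with quality weights gave 0 for both. In all genes 0.161% passed for age and 0% for 8-AG. The library preparation differed between the tissues and cannot be told apart from the tissue.

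**Figure D5:**
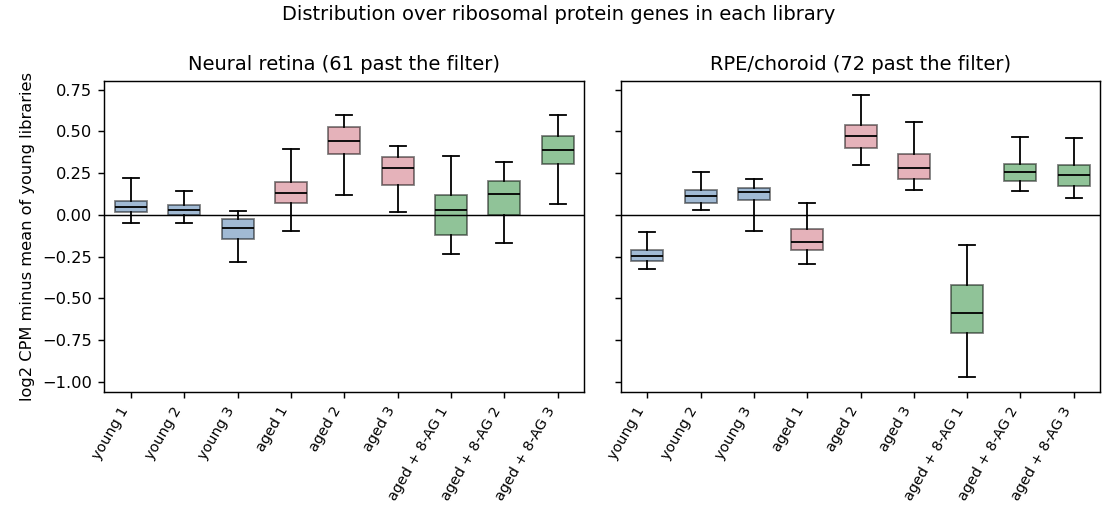
Distribution over the ribosomal protein genes of log2 CPM minus the mean of the 3 young libraries (y axis) in each library (x axis), for 61 genes in retina (left) and 72 identifiers in RPE/choroid (right), with boxes for the quartiles, lines for medians and whiskers for the 5th to 95th percentiles. Most of the family lies higher or lower together in a library, with medians of 0.44 in retina aged library 2, 0.39 in retina 8-AG library 3 and -0.59 in RPE/choroid 8-AG library 1.

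The genes of the family varied together from library to library within a group. Over the 9 retina libraries, the deviation of a gene's log2 CPM from its group means had a median Pearson r of 0.93 with the median deviation of the other ribosomal protein genes, and 49 of 61 genes had an r over 0.8. Of 14808 other genes 3.84% had such an r. In RPE/choroid the median r was 0.98 and 69 of 72 were over 0.8, against 14.8% of 16553 other genes. Without 8-AG library 1 the median r was 0.97 and 62 were over 0.8, against 5.89% of other genes. All points share library, depth and normalisation. The within-group SD of a gene was 0.16 in retina and 0.36 in RPE/choroid (medians, log2). It was 0.08 and 0.10 after the median deviation of the family was taken off each library. Without 8-AG library 1 the RPE/choroid values were 0.26 and 0.07. In retina Rpl9, Rps6 and Rpl13 had SDs of 2.53, 2.89 and 3.73, and all other genes of the family were under 0.5. The members therefore do not give independent readings of a group, and a library that is high is high for nearly all of them.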

How the data were processed

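Poly-A RNA-seq of 18 libraries was analysed. Submitters' processing notes name Bowtie2 2.1.0, RSEM 1.2.15, edgeR and build Rnor_6.0 without roles. Retina values were expected counts per gene that the authors deposited (RSEM, 11.5% not whole), rounded here. RPE/choroid values were raw counts the authors deposited, and their counting program is not given in the sources used here. The TMM-normalized signal table that the authors deposited supplied retina symbols: dividing out its scaling gave whole reads for 99.9921% of values (to 0.02 counts), which were summed over identifiers per symbol. Other tables hold the authors' fold changes and p-values or normalized counts and were not used, except for the symbols in the RPE/choroid tables.

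Each comparison was fitted on its 6 libraries with edgeR 4.0.16 (R 4.3.3): filterByExpr, TMM factors, robust glmQLFit, glmQLFTest and Benjamini-Hochberg adjustment over all genes tested, with calls at an adjusted p under 0.05. SEs are the log2 fold change divided by the square root of F. CPM levels use the TMM-corrected totals of 9 libraries per tissue. The fit was tested on simulated data: it recovered few of the changes near the size of the age effect in retina and few of any simulated size in RPE/choroid, so a count of 0 does not show that levels were alike. Alternatives included DESeq2 1.42.0, limma 3.58.1 voom, other scalings and filters, a shared fit and leaving out each library. With 3 libraries against 3, an exact permutation test of a single value could not go below 0.1 and none was run.

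The members and lists were chosen with earlier results of these data known. Named genes were the 4 highest and 4 lowest fold changes among calls (with fewer calls, all plus the 2 highest and 2 lowest tested), genes with set roles (the stalk, the 5S particle and others), ribosomal proteins with other symbols, paralogs, and the 2 highest and 2 lowest calls of each list. Depth is 12283424 counts or more per library, and intervals and errors cover these libraries. Values of a few genes are not reported here.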

Additional observations from a re-analysis of the deposited data

How the results depend on the processing

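In retina aged against young, the 23 calls became 10 with all 3 groups in one fit and 6 to 38 without 1 library. Between 18 and 31 genes were called under the other settings, among them 29 by DESeq2, 31 with upper-quartile factors, 23 on counts recovered from the symbol table and 27 when identifiers named as ribosomal only in RPE/choroid were added (the last 2 chosen after seeing the data). In retina 8-AG against young, the 7 calls became 4 with a replicate block and 2 to 22 without 1 library. The count of genes below 0 was 33 to 59 for retina 8-AG against aged and 26 to 72 for RPE/choroid 8-AG against aged without 1 library. For RPE/choroid 8-AG against young, 40 above 0 became 10 with a rod marker score as covariate and 14 to 72 without 1 library. The cause was not tested. Leaving out 1 library also means fewer samples. Replicate numbers did not pair the libraries: correlations of same-numbered libraries ran from -0.58 to 0.65, and in no comparison were all 3 over 0.1. With the replicate block, retina aged against young had 22 calls. No ribosomal protein gene of the family was called lower under any setting run. None of the family was called in RPE/choroid or in retina 8-AG against aged under any of them. Among values of named genes under alternatives, 2200 kept direction and side of the threshold, 130 lost the call, 9 gained it, and 156 that were not called changed sign. The common dispersion was 0.195 and 0.396 in the age and 8-AG comparisons of RPE/choroid, against 0.0146 and 0.0179 in retina, so that only larger changes could pass there. The tissue difference had 0 calls with and without the genes that failed the filter in retina (chosen after seeing the data).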
